A study of Mus musculus with 4 samples.

Results

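The group 2 Kruppel-like factors Klf1, Klf2, Klf4, Klf5, Klf6 and Klf7 were examined in KLS cells of mouse bone marrow. KLS stands for the sort gate Lin- c-Kit+ Sca-1+, which contains the blood stem cells and their earliest progeny. Every probe set annotated to 1 of these 6 symbols alone was taken, which gave 6 probe sets, 1 per gene, of 28939 tested. The comparison rested on 4 Affymetrix arrays, 2 of cells with the Klf7-/- genotype and 2 of Klf7+/+ cells, all of C57Bl/6 strain. Fetal liver of both genotypes had been used to make chimeric mice, and the labels do not say whether arrays of the 2 genotypes came from the same mice. Not given in the sources used here are the number and age of the mice or embryos behind an array, any pooling of cells, and the part of Klf7 that was deleted. What the p-values measure is thus the spread among these arrays alone, part of which may be technical.

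KLF proteins bind CACCC and GC-rich boxes in promoters through C2H2 zinc fingers at their carboxyl end. Those of group 2 mostly activate transcription and recruit acetyltransferases such as p300, CBP and PCAF, whereas other KLF groups recruit the CtBP or Sin3A corepressors. In blood, Klf1 drives red cell genes, Klf2 keeps T cells quiescent and guides their traffic, Klf4 promotes monocyte development, and Klf5 acts in progenitor adhesion and homing. Klf6 and Klf7 resemble each other most closely within the group, and Klf7 is best known from neurons.

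The promoters of several members, like those of many other genes, carry the kind of boxes that KLF proteins themselves read. RefSeq sequence of GRCm38.p6 was matched for 5 of the 6 genes (Klf5 was not among them), and the 250 bases before each start site were searched on both strands. The letters CACCC occurred 3 times for Klf7, 1 time each for Klf1 and Klf2, and 0 times for Klf4 and Klf6. Of 32851 promoters, 52.0% held CACCC. The GC box letters GGGCGG, counted separately from CACCC, occurred 4 times for Klf4 and 2 times for Klf2. They occurred 1 time each for Klf6 and Klf7 and 0 times for Klf1, and 32.7% of all promoters held them. GGGCGG consists of G and C alone, and the counts were not adjusted for the G and C content of a promoter. That content was 74% for Klf4, 71.2% for Klf2, 64.8% for Klf6, 59.2% for Klf7 and 49.2% for Klf1. Such matches describe letters and not bound sites. The upstream sequences of Klf4 (chr4:55532476-55532725, minus strand) and Klf6 (chr13:5861239-5861488, plus strand) are shown because both genes read lower on each knockout array than on each wild-type array. Capitals mark GGGCGG on either strand.
Klf4: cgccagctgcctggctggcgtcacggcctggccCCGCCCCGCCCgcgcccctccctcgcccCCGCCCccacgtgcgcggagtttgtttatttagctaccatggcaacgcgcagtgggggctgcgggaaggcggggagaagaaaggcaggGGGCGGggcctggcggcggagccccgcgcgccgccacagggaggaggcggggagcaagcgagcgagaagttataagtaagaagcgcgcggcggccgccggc
Klf6: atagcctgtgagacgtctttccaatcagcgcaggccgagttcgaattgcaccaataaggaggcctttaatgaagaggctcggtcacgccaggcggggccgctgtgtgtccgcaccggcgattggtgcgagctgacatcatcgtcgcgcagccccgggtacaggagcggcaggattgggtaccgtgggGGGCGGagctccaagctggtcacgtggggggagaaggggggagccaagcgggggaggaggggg
Shorter stretches of Klf1 (chr8:84901876-84901931, plus strand) and Klf2 (chr8:72318919-72318978, plus strand) hold letters of the kind read by their best known upstream factors. Capitals mark GATAAG on either strand, read by GATA factors, for Klf1 and the MEF2 consensus for Klf2. Of all promoters, 6.55% held GATAAG and 0.508% held the MEF2 consensus.
Klf1: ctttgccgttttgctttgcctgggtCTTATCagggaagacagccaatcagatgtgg
Klf2: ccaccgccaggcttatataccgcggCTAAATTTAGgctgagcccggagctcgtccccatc

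Arrays gave 1 intensity per probe set, and values here are log2 intensities. The median over the probe sets tested lay between 5.67 and 5.71 on the 4 arrays, and 5% of probe sets read below 3.03 to 3.24. Probe sets differ in how brightly they report a transcript, so members are not ranked against each other. The KLS label was checked on 12 measured marker genes. Kit, which encodes the c-Kit sort antigen, stood at 10.12 and 9.92 on the knockout arrays against 9.55 and 9.71 for wild type, and Cd34 read between 9.57 and 10.24. Ly6a, the Sca-1 gene, was not analysed here. Slamf1 and Tek were dim, at the 18.7 and 40.7 percentile of all probe sets. Genes listed as T or B cell markers ranged widely in brightness, from Cd3d at the 22.4 to Lat at the 79.8 percentile among T cell genes, and from Ms4a1 at the 12.3 to Cd79b at the 65.7 percentile among B cell genes. Markers of other lineages included bright genes. Granulocyte genes ran from Ltf at the 33.7 to Mpo at the 97.1 percentile, and erythroid genes from Alas2 at 45.1 to Car2 at 94.97. Megakaryocyte genes ran from Itga2b at 65.5 to Pf4 at 92.9, and NK cell genes from Klrb1c at 11.98 to Nkg7 at 91.7. Kit stood at the 96.5 percentile. Whether these readings came from other cells in the sort was not tested.

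Sex-linked transcripts split the arrays as the genotype labels did. Xist, which coats the inactive X chromosome, read 11.76 and 11.58 in knockout against 5.24 and 4.80 in wild type, and the Y-linked genes Uty and Kdm5d lay the other way at -2.88 and -1.63 (log2 differences). Genotype and donor sex therefore cannot be told apart on these arrays. The 6 KLF genes lie on chromosomes 1, 4, 8, 13 and 14 and not on X or Y.

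None of the 6 members differed between genotypes past the threshold in limma (adjusted p under 0.05 over all probe sets), and none had an unadjusted p under 0.05. Over all probe sets 0.00346% passed, a single one (Xist), and 1450 had an unadjusted p under 0.05. By sign alone 3 members read higher and 3 lower in knockout, and over all probe sets 12801 read higher and 16138 lower. The median difference was -0.08 on the log2 scale for the members against -0.03 over all probe sets. The median absolute difference was 0.20 for the members and 0.16 for all. Groups did not overlap for Klf7 (higher in knockout), Klf6 and Klf4 (both lower). That is 1 of 6 in the upward direction, where 13.9% of all probe sets did the same, and 2 of 6 downward, where 19.6% did, or 3 of 6 in either direction against 33.6%.

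**Figure D1:**
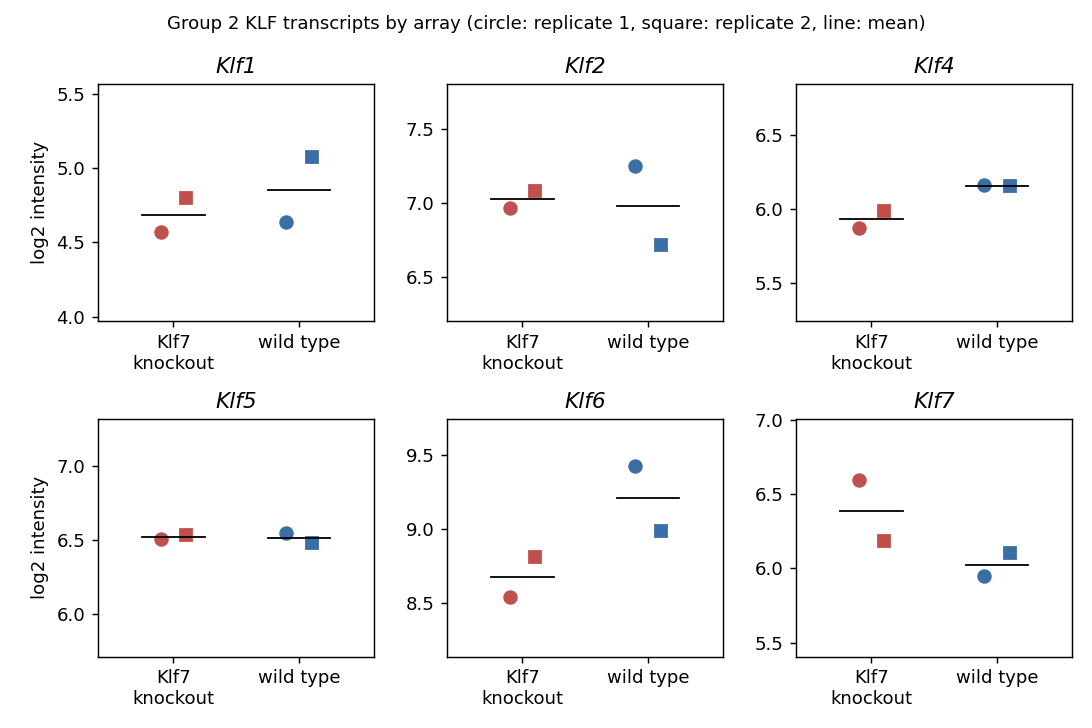
Log2 intensity of each group 2 KLF probe set on the 4 arrays, knockout in red and wild type in blue, with circles for replicate 1, squares for replicate 2 and lines at the group means. Each panel spans the same log2 range around its own gene. The groups separate for Klf4, Klf6 and Klf7 and overlap for Klf1, Klf2 and Klf5.

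The targeted gene, Klf7 (probe set 10355141), gave knockout readings of 6.59 and 6.18 and wild-type readings of 5.95 and 6.10. Both knockout arrays lay above both wild-type arrays, although knockout replicate 2 exceeded wild-type replicate 2 by only 0.08. In intensity units the values were 96.5 and 72.6 against 61.6 and 68.6. The difference was 0.36 ± 0.21 (SE, n = 2 per group), with a limma adjusted p of 0.950, and it was smaller than the 0.41 between the knockout replicates. Its 95% confidence interval ran from -0.18 to 0.91, so a fall of more than 1.14-fold in the signal of this probe set lay outside it. Without knockout replicate 1 the difference was 0.16 and without knockout replicate 2 it was 0.57. The position of the probe set relative to the deletion is unknown here. If it lies outside the deleted stretch, its signal is no check of the genotype labels.

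Klf6 (probe set 10403352), a zinc finger factor that responds early to stimuli and is required for normal blood development, had the largest difference of the group. Knockout readings were 8.54 and 8.81 and wild-type readings 9.42 and 8.99, so both knockout arrays were below both wild-type arrays. The 4 pairings of a knockout with a wild-type array gave differences from -0.88 to -0.18. The mean difference was -0.53 ± 0.23 (SE, n = 2 per group), a signal 1.44-fold higher in wild type, with a limma adjusted p of 0.945. The gap between the wild-type replicates, at 0.43, was nearly as large. The 95% interval of -1.12 to 0.06 included 0. It reached a 2.18-fold lower signal at one end and a 1.05-fold higher one at the other. Of all probe sets, 9.47% had a larger absolute difference. Leaving out wild-type replicate 1 brought the difference to -0.31, and leaving out wild-type replicate 2 brought it to -0.75.

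Klf4 (probe set 10513008), which promotes monocyte differentiation and restrains cell division, was tightly measured in wild type. Its values were 6.16 and 6.15 there and 5.87 and 5.99 in knockout. The groups did not overlap, and the difference was -0.23 ± 0.16 (SE, n = 2 per group; limma adjusted p = 0.953), with a 95% interval of -0.64 to 0.18. A drop of more than 1.55-fold lay outside that interval. With 1 array left out the difference ran from -0.28 to -0.17. By size alone the gene was ordinary, since 36.6% of probe sets had a larger absolute difference.

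For Klf2 (probe set 10572800), a factor of quiescence and trafficking in lymphocytes, knockout readings were 6.97 and 7.08 and wild-type readings 7.25 and 6.72. The wild-type arrays enclosed both knockout values and lay 0.53 apart. The difference was 0.04 ± 0.23 (SE, n = 2 per group; limma adjusted p = 0.999), and its 95% interval of -0.57 to 0.66 reached a 1.49-fold drop and a 1.58-fold rise. The direction depended on the array left out: it was -0.22 without wild-type replicate 2 and 0.31 without wild-type replicate 1.

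Klf5 (probe set 10416777), which has been linked to adhesion and homing of progenitors, had the smallest difference of the 6. All 4 arrays lay close together, with knockout at 6.51 and 6.53 and wild type at 6.55 and 6.48. The difference was 0.0077 ± 0.15 (SE, n = 2 per group; limma adjusted p = 1.00). Its 95% interval of -0.39 to 0.41 left a drop of more than 1.31-fold or a rise of more than 1.33-fold outside. The limma error borrows from all probe sets and exceeds this gene's own replicate gaps of 0.025 and 0.067.

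Klf1 (probe set 10573457), the erythroid member, had a dim probe set, at the 25.4 percentile of all probe sets. Knockout readings of 4.57 and 4.80 overlapped wild-type readings of 4.64 and 5.07. The difference was -0.17 ± 0.22 (SE, n = 2 per group; limma adjusted p = 0.974), and the 95% interval ran from -0.75 to 0.41. Without wild-type replicate 2 it was 0.045. The erythroid markers beside it were summed over 5 measured genes, giving 928 to 1192 intensity units in knockout and 826 to 969 in wild type, which overlapped. The median difference of these genes was 0.25, and 4 of 5 read higher in knockout. Groups did not overlap for 2 of them, both upward, where 13.9% of all probe sets did the same. These were the band 3 gene Slc4a1 at 0.28 ± 0.16 and Alas2, the heme synthesis enzyme gene of red cells, at 0.25 ± 0.20. The sum rested mainly on the carbonic anhydrase genes Car1 and Car2. The part of these cells in the Klf1 value was not tested. In sorted cells measured in bulk, fewer cells of a type and less RNA per cell cannot be told apart.

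**Figure D2:**
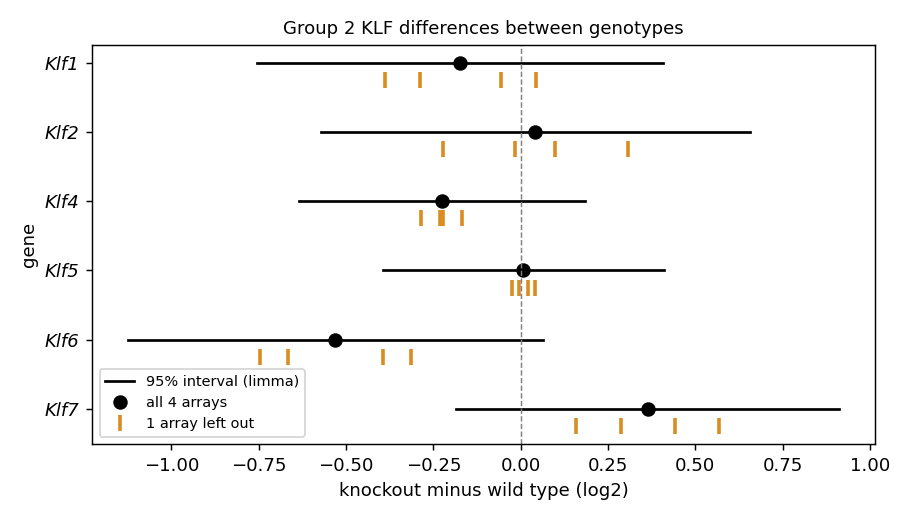
Log2 difference (knockout minus wild type) for each member, with points for all 4 arrays, lines for the limma 95% confidence interval and orange ticks for the values with 1 array left out. Every interval crosses 0. The ticks of Klf4, Klf6 and Klf7 stay on 1 side of 0, as they must where groups do not overlap. They run from -0.28 to -0.17 for Klf4, from -0.75 to -0.31 for Klf6 and from 0.16 to 0.57 for Klf7.

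The other KLF genes had no member past the limma threshold. Of the 3 CtBP-group repressors, 2 read higher and 1 lower, with Klf8, an X-linked gene, at 0.33 ± 0.16 and Klf3 at -0.0055 ± 0.17 (SE, n = 2 per group). The 6 Sin3A-group genes divided into 3 and 3. Among them Klf10, a gene induced by TGF-beta, stood at 7.01 and 7.14 for wild type against 6.53 and 6.21 for knockout. Its difference of -0.70 ± 0.19 was further from 0 than that of any group 2 member, with a limma adjusted p of 0.945. Klf13 stood at 0.31 ± 0.22 and the ungrouped Klf15 at 0.20 ± 0.17. Of 8 measured SP factors, relatives that bind the same GC boxes, 5 were higher and 3 lower, and the groups overlapped for all 8. Sp4 stood at 0.30 ± 0.22 and Sp3 at 0.08 ± 0.18.

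Cofactors through which group 2 proteins act gave 8 higher and 4 lower of 12 measured, with a median of 0.10 and 0 past the limma threshold. The acetyltransferase gene Ep300, chosen after its values were seen, stood at 8.39 and 8.31 for knockout against 8.03 and 8.20 for wild type, a difference of 0.24 ± 0.16. Kat2a, another acetyltransferase gene, differed by 0.53 ± 0.37, and Fbxo38, whose product is a KLF7 coactivator, by -0.33 ± 0.30. Both overlapped between groups.

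Regulators upstream of the members read 8 higher and 4 lower of 12, with a median of 0.10. Map2k5, the kinase above ERK5 in the path that induces Klf2 and Klf4, differed by 0.73 ± 0.42 (SE, n = 2 per group). Its groups overlapped, and its wild-type replicates lay 1.09 apart. Foxo1, an activator of Klf2 in lymphocytes, differed by 0.31 ± 0.24, also with overlap. For the GATA and MEF2 letters shown above, Gata1 stood at -0.21 ± 0.24 and Gata2 at -0.20 ± 0.26, while Mef2c stood at -0.04 ± 0.16. Those 3 genes were chosen after their values were seen, and the groups overlapped for each.

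Genes for enzymes that act on the stability of KLF proteins mostly read higher, 7 of 8 of them in knockout, with a median of 0.30 against -0.03 over all named genes. None of the 8 passed the limma threshold, and 3 did not overlap between groups, all 3 upward, where 13.9% of all probe sets did the same. Atxn3, a deubiquitinase gene, stood at 7.84 and 7.03 for knockout against 6.72 and 5.79 for wild type. Its difference of 1.18 ± 0.43 had a limma adjusted p of 0.945, and the replicates of each group lay 0.80 and 0.93 apart. Smurf1, the ligase that marks Klf2 for degradation, differed by 0.51 ± 0.36 with overlap.

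Genes described as targets of the 6 factors divided nearly evenly. Of 54 listed, 44 were measured, and 21 read higher and 23 lower in knockout, with a median of -0.01 and 0 past the limma threshold. Groups did not overlap for 6 of the 44 upward and 8 downward, near the 13.9% and 19.6% of all probe sets. Many of these targets were described in other tissues, and the lists do not mark whether a factor raises or lowers a target. The signs therefore cannot show whether the activity of a factor changed. Of the 8 measured targets of Klf7, 4 were higher and 4 lower. Only 4 of the 8 had a mean above the median of all probe sets. Il6, Fabp4 and Pparg were dim, at the 1.16, 10.3 and 27.4 percentile, so their signs say little. The cell cycle inhibitor gene Cdkn1b stood at 0.07 ± 0.20 and the myeloid factor gene Cebpa at 0.11 ± 0.25 (SE, n = 2 per group).

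The targets of Klf6 gave 3 higher and 7 lower of 10, with a median of -0.03. Eng, a TGF-beta coreceptor gene, stood at 6.28 and 6.81 for knockout against 6.18 and 5.93 for wild type, a difference of 0.49 ± 0.25. Atf3, a stress-induced factor gene, stood at -0.33 ± 0.28. For Klf1, 8 of 11 measured targets were higher, with a median of 0.12. The erythroid markers Slc4a1 and Alas2, described above, are among these 8. The red cell adhesion gene Icam4 stood at -0.71 ± 0.37 and Bcl11a, a repressor of fetal globin, at 0.45 ± 0.24.

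The remaining target lists were short. All 4 measured Klf2 targets read lower in knockout, as did 10971 of 19938 named genes. Of these targets, Itgb7, a lymphocyte homing integrin gene, stood at -0.31 ± 0.22 and S1pr1, the receptor for lymphocyte egress, at -0.09 ± 0.16. Of 6 Klf4 targets 4 read higher, with the cyclin-dependent kinase inhibitor gene Cdkn1c at 0.07 ± 0.33 and the cyclin gene Ccnd1, also listed for Klf5, at 0.06 ± 0.15. Of 7 Klf5 targets 4 read lower, with the kinase gene Pim1 at -0.48 ± 0.23. The endosomal gene Rab5b stood at -0.46 ± 0.52 in its brighter probe set and at -0.11 in its other one. In the brighter one the groups overlapped and the wild-type replicates lay 1.32 apart.

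Klf6, Klf4 and Klf2 are themselves quickly induced by stimuli, so other immediate early genes were read beside them. Of 24 measured, with no KLF gene among them, 19 read below wild type in the knockout arrays, the groups did not overlap for 11 of these (19.6% of all probe sets were lower without overlap), and the median was -0.29. Their summed intensity was 7293 and 8445 for the knockout arrays against 10487 and 9605 for wild type, so the groups separated as they did for Klf6. Btg2, an antiproliferative gene, differed by -1.08 ± 0.26 and Egr1, a zinc finger factor gene, by -0.89 ± 0.23 (SE, n = 2 per group), and none passed the limma threshold. The list median was -0.16 without wild-type replicate 1, the array on which Klf6 was highest, -0.44 without wild-type replicate 2, and -0.22 and -0.34 without knockout replicates 1 and 2. The part of this early response level in the Klf6, Klf4 and Klf2 values was not tested.

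No cell type marker passed the limma threshold. The summed intensity did not overlap between groups for the KLS, monocyte, endothelial and stromal lists. Among single probe sets the share without overlap, in either direction, was 33.6%. Summed KLS markers were 5314 to 5381 in knockout and 3914 to 4405 in wild type. Of these 12 genes, 9 were higher, led by Cd34 at 0.62 ± 0.15. Groups did not overlap for 7 of the 12 upward and 1 downward, where 13.9% and 19.6% of all probe sets did the same. The KLS sum rested mainly on Cd34, Kit, Flt3 and Meis1. Mecom, a stem cell factor gene, stood at -0.71 ± 0.25 in its brighter probe set and at 0.54 in its other one. Summed monocyte markers, relevant to Klf4, were 434.6 to 435.4 in knockout and 447 to 500 in wild type, with 4 of 6 lower. Its brightest members lay on opposite sides, the lysozyme gene Lyz2 at -0.53 and Cd68 at 0.28, while Cd14 and Adgre1 were dim on all arrays, between 3.88 and 5.27. Summed endothelial markers, relevant to Klf2 and Klf4, were 333 to 354 against 368 to 382 over 4 genes. Stromal markers were 142 to 149 against 152 to 153 over 3 genes. The endothelial sum rested mainly on Pecam1, which overlapped between groups, and the stromal sum mainly on Col1a1. Cdh5 and Kdr were dim, at the 35.4 and 27.5 percentile, as were Cxcl12 and Lepr, at the 35.4 and 9.42. Summed T cell markers, relevant to Klf2, overlapped at 419 to 482 in knockout and 412 to 482 in wild type. Megakaryocyte, granulocyte, B cell and NK cell sums overlapped as well. Knockout replicate 1, without which the Klf7 difference was 0.16, stood apart in the B cell sum, at 581 against 206 to 235 on the other arrays, with the pre-B cell gene Vpreb1 at 8.59 against 5.35 to 5.57. Its granulocyte sum was 4015, against 2105 in knockout replicate 2 and 2837 to 3082 in wild type. The part of these cells in the KLF values was not tested.

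Many genes had a profile like that of Klf7 over the 4 arrays. Likeness was the root mean square distance between mean-centred log2 values, among 10342 named genes above the median level. The nearest were Mtss1 at 0.013, Il17ra at 0.013 and Sumf2 at 0.021, and 152 genes lay within 0.1. For Klf6 the nearest were Olfr149 at 0.034, Kpna1 at 0.044 and Derl1 at 0.056, and 38 genes lay within 0.1. With only 4 arrays such profiles recur among unrelated genes.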

How the data were processed

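Per the labels, RNA of sorted cells was amplified and hybridised to 4 arrays. The authors deposited a single table of linear intensity values, and the submitters' processing notes name RMA and Affymetrix Expression Console with no version. The log2 of each intensity was taken, with no added normalization. Of 35554 probe sets, the 6615 before the first annotated one were assumed to be controls and left out. The platform annotation gave 1 symbol for 21789 of the 28939 tested, several for 1621 and none for 5529. Symbols were updated through RefSeq (GRCm38.p6). Genes outside the group were represented by their brightest probe set, and listed genes with no matched symbol were not analysed here.

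Knockout was compared with wild type in limma 3.58.1 under R 4.3.3 (lmFit, eBayes, two-sided tests, Benjamini-Hochberg adjustment across the whole table), with 2 residual degrees of freedom. Errors are moderated standard errors (SE). The number of arrays limits the precision. Groups and replicate numbers came from sample titles. The members and lists were chosen with earlier results of these data known. Every member was described. From each list at most 2 genes brighter than the median probe set were named by size of difference, and other markers and genes were chosen after their values were seen. In 10 simulated versions of this comparison, each of 28939 probe sets, limma found 0% of the 2-fold changes, 27.6% of the 4-fold changes and 67.9% of the 16-fold changes. The simulated noise was independent and normal, with the replicate spreads of these arrays shuffled among probe sets. Those rates hold for that setting and may differ for the real arrays. Alternatives were repeated quantile normalization, cyclic loess, an offset of 32, a filter on dim probe sets, another variance model, a replicate block, each array left out, leading probe sets kept and, for lists, averaged probe sets.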

Additional observations from a re-analysis of the deposited data

How the results depend on the processing

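Klf4, Klf6 and Klf7 kept their direction and stayed short of the limma threshold in each of 11 alternatives, at -0.28 to -0.15, -0.75 to -0.31 and 0.16 to 0.57 on the log2 scale. Over all 6 members, 59 of 66 values had the same sign and the same side of the threshold and 7 reversed, with adjusted p from 0.774 to 1.00, so the side says little. Klf5 reversed to -0.024 with quantile normalization again and to -0.0019 with cyclic loess. With each array left out, Klf5 ran from -0.026 to 0.041, Klf1 from -0.39 to 0.045 and Klf2 from -0.22 to 0.31, and the cause was not tested. Leaving out an array makes overlap easier to avoid, and 3 to 6 members then did not overlap (3 with all arrays). The share of all probe sets without overlap, 33.6%, was counted with all arrays only. The counts with an array left out therefore have no background to be read against. The limma count over all probe sets was 1, and 0 with quantile normalization again, an offset of 32, an intensity trend with robust estimation, leading probe sets kept and the replicate block, and 0 to 0 with each array left out, where unadjusted p under 0.05 was met by 1177 to 2069 probe sets, against 1461 to 1696 in the former settings. With the replicate block Klf7 had an adjusted p of 0.883 and Klf6 of 0.881; deviations of equal-numbered arrays correlated at 0.043 across probe sets, and the labels do not say that the numbers mark pairs. Detection over background was not used here, which bears most on the dim Klf1 probe set.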
